A study of Rattus norvegicus with 9 samples.

Results

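Expression of 5 inflammatory genes was followed in rat lung: Il6, Il1a, Il1b and Tnf, which encode cytokines, and Socs3, which encodes an inhibitor of cytokine signalling. The members were all probe sets that the annotation of the array gives to one of these 5 genes alone. They came to 10 of the 8740 probe sets that were not controls, and to 5 of the 4736 genes with a probe set of their own. Il6 had 2 probe sets, Il1a 3, Il1b 3, Tnf 1 and Socs3 1. The lungs came from rats that were mechanically ventilated with 100% oxygen (mechanical 100%), mechanically ventilated with 21% oxygen (mechanical 21%), breathing spontaneously in 100% oxygen (spontaneous 100%) or breathing spontaneously in 21% oxygen (spontaneous 21%). Each group held 2 samples, named a and b, and sample b of mechanical 100% stands on a pair of arrays, whose mean is used as 1 sample. The labels give no strain, age, sex, tidal volume or duration for any group. They do not say that samples a and b came from different animals, so p-values reflect only how far samples a and b lay apart, which could be technical.

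Total RNA was hybridised to 9 oligonucleotide arrays, and the deposited values are linear intensities, which can be negative where the background taken off exceeded the signal. The 2% trimmed means lay between 800.5 and 801.1, and each array had 18.42% to 20.01% of its probe sets at or below 0. The 99th percentile was 7072 to 8357 on the mechanical 100% arrays and 9931 to 14581 on the others. The median log2 difference of all tested probe sets was 0.126 for mechanical over spontaneous 100%, 0.137 for mechanical 100% over 21% and 0.153 for the interaction. Quantile normalization brought these medians to -0.0097, 0.0079 and -0.0052, and the share of called probe sets that were higher in mechanical 100% than in mechanical 21% lungs to 48.6%, against 58.9% as deposited. That share was 51.2% against 61.7% for the interaction. A line for a lot batch, which gives no lot, stands in the descriptions of both spontaneous 21% arrays, the mechanical 100% array of sample a and 1 of the 2 arrays of sample b. It is absent from all arrays of the other groups. The differences of mechanical 21% and spontaneous 100% from spontaneous 21% can thus not be told apart from whatever the line marks.

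Lung markers were high in every group, with summed intensities of 8 lung epithelial genes of 44665 and 49680 in mechanical 100%, 69625 and 73660 in mechanical 21%, 60365 and 76518 in spontaneous 100%, and 97722 and 83686 in spontaneous 21% samples. Markers of other tissues differed widely between groups. The 11 T lymphocyte markers on the array summed to 32795 and 34711 in mechanical 21% samples and to 2178 to 3309 in the samples of the other groups. Cd28 was at or below 0 in all samples. The 8 brown or white fat markers summed to 8000 and 9706 in mechanical 100%, 20297 and 21617 in mechanical 21%, 10840 and 10600 in spontaneous 100%, and 11474 and 11696 in spontaneous 21% samples, with Plin1 at or below 0 in all. These sums hide differences between single markers. In spontaneous 100% over 21%, 4 of 7 tested were called higher and 2 lower, against 6.453% and 9.915% of all genes. Ucp1 read 1098.5 and 1087.2 in spontaneous 100%, 248.0 and 271.2 in spontaneous 21%, 6179.1 and 6247.4 in mechanical 21%, and 37.9 and 31.1 in mechanical 100% samples. The 14 skeletal muscle markers summed to 29606 and 28520 in spontaneous 100% samples, against 3053 and 3127 in mechanical 100%, 8951 and 9014 in mechanical 21% and 6347 and 6177 in spontaneous 21% samples. The 5 squamous epithelial markers summed to 7214 and 7632 in spontaneous 100% samples and to at most 1892 elsewhere, with Krt4 at or below 0 in both mechanical groups. Fewer cells of a type and less RNA per cell cannot be told apart in such tissue samples.

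Il-6 binds its receptor, the product of Il6r, together with a shared signalling chain, and activates Jak kinases and the transcription factor Stat3. Stat3 induces acute-phase genes and also Socs3, whose product binds the receptor complex and Jak kinases and shuts the signal off. Il-1 alpha and Il-1 beta act on the same receptor, Tnf acts on receptors of its own, and both routes release NF-kB, which in turn switches on Il6 and the cytokine genes themselves. In the lung these cytokines are made by macrophages and also by epithelial and endothelial cells, and they are known for their part in injury by overstretch and by high oxygen.

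Il6 was listed at or below 0 in spontaneous 21% lungs and well above it in the other groups, Il1b was lower in spontaneous 21% lungs than in most others, and Il1a and Socs3 were highest in mechanical 100% lungs. Tnf gave no signal above 0 on any array. Differences were tested with limma on log2(intensity + 40), and a difference was called at a Benjamini-Hochberg adjusted p under 0.05 over all 5244 probe sets tested. Of the 10 probe sets 8 were bright enough to be tested, and Tnf and the second probe set of Il6 were not. For mechanical over spontaneous 21%, 4 of 8 were called, all higher, against 14.5% of all tested probe sets. For mechanical over spontaneous 100%, 3 of 8 were called, all higher, against 26.9%. For spontaneous 100% over 21%, 4 of 8 were called, all higher, against 16.8%. For mechanical 100% over mechanical 21%, 5 of 8 were called, all higher, against 35.1%. For mechanical 100% over spontaneous 21%, 5 of 8 were called, all higher, against 14.5%. For the interaction, which sets the effect of ventilation at 100% against that at 21% oxygen, 4 of 8 were called, 2 in each direction, against 27.4%. The 3 of 8 in mechanical over spontaneous 100% lies near its background share and is no result about these genes as a group. The 8 probe sets stand for 4 genes, and those of 1 gene read the same transcript.

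**Figure D1:**
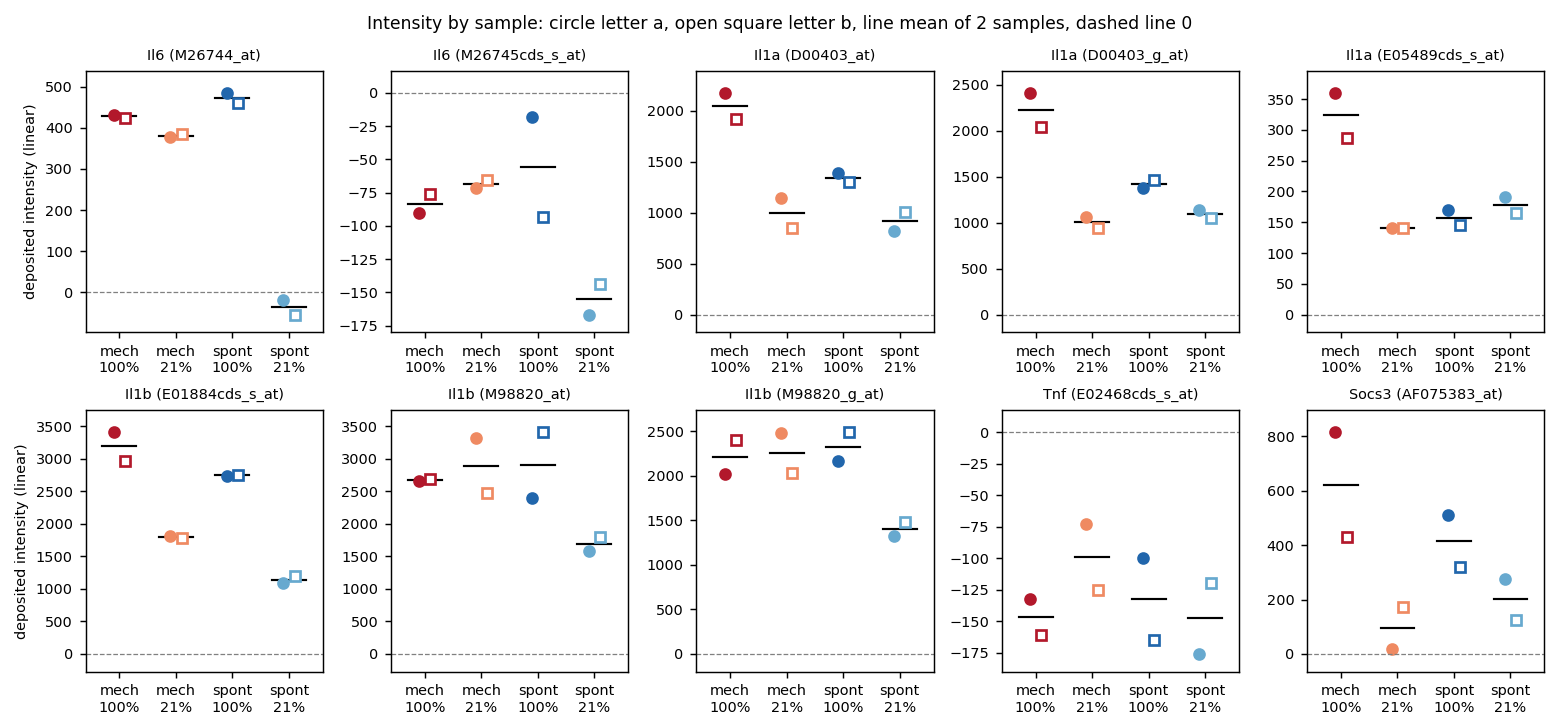
Deposited intensity (linear scale, own axis in each panel) of the 10 probe sets in the 4 groups, with mech for mechanical and spont for spontaneous; circles are sample a, open squares sample b, bars the mean of the 2 samples and the dashed line 0. Il6 M26744_at is below 0 only in spontaneous 21%, and Tnf and the second Il6 probe set are below 0 in all groups.

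Il6 encodes interleukin-6, a cytokine that drives the acute-phase response. The probe set M26744_at read 431.6 and 424.7 in mechanical 100%, 377.2 and 384.4 in mechanical 21%, and 485.0 and 461.4 in spontaneous 100% lungs, against -17.7 and -54.4 in spontaneous 21% lungs. The 3 groups that had ventilation, high oxygen or both thus lay in a range of their own, and both samples of room-air breathing fell below 0. The fit called each of the 3 against spontaneous 21%, with adjusted p = 4.8e-05 for mechanical 21%, 7.5e-05 for spontaneous 100% and 6.7e-05 for mechanical 100%. The fit set both spontaneous 21% readings to 0, so the distance between them did not enter these p-values. Il6 was also bright enough to be tested only through the 3 groups above 0, so these p-values add no support to the readings. No fold is given for these differences, since values at or below 0 make its size depend on the 40 units added before the logarithm. In order of mean level spontaneous 100% came first, then mechanical 100%, mechanical 21% and spontaneous 21%, and the neighbours among the first 3 did not differ past the threshold. The log2 difference of mechanical over spontaneous 100% was -0.13 ± 0.20 (SE, 95% interval -0.59 to 0.32, adjusted p = 0.66). That of mechanical 100% over mechanical 21% was 0.15 ± 0.20 (95% interval -0.30 to 0.61, adjusted p = 0.57), and its sign turned under quantile normalization (-0.06) and cyclic loess (-0.09).

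The fit also called the interaction for Il6 (adjusted p = 0.00016), with the same limits. That p-value too leaves out the distance between the 2 spontaneous 21% readings, which were set to 0. Both mechanical 21% samples lay above both spontaneous 21% samples, whereas both mechanical 100% samples lay below both spontaneous 100% samples. The 2 arrays of sample b of mechanical 100% gave 415.4 and 434.0. Among the arrays with the lot line, mechanical 100% read 431.6 and 434.0 and spontaneous 21% -17.7 and -54.4, but Il6 was too low to be tested there. Mechanical 21% and spontaneous 100% have no array with the line, so their differences from spontaneous 21% cannot be compared within it. Il6 passed the filter on low values through the 3 groups in which it was above 0. In fits of spontaneous 21% with 1 other group alone it was too low to be tested, and with no filter its adjusted p was 0.00083, 0.0011 and 0.00094 in mechanical 21%, spontaneous 100% and mechanical 100%.

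The second Il6 probe set, M26745cds_s_at, gave no reading above 0. It read -90.5 and -76.3 in mechanical 100%, -71.6 and -65.6 in mechanical 21%, and -18.1 and -93.3 in spontaneous 100% lungs, against -166.7 and -143.5 in spontaneous 21% lungs. Both spontaneous 21% samples were the lowest here too, but all 8 samples were below 0, so it has no level in any group. The probe sets of Il6 thus disagree on whether the transcript was detected. For scale, 23 control probe sets for bacterial, yeast and mouse genes without a spiked target read between -293.0 and 302.4 over the 9 arrays, and 15 controls on the opposite strand between -317.6 and 471.3. Of the Il6 sample readings only that of spontaneous 100% sample a, 485.0, lay above the highest opposite-strand control.

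The promoter of Il6 is shown because it carries the textbook sites for its induction within a short stretch. The window is the 250 bases before the RefSeq start, chr4:5894576-5894825 on the minus strand of GRCr8, written along the gene. Capitals mark matches to TGACGTCA (cyclic AMP response), to TTGCNNAA on the opposite strand (C/EBP type) and to GGNNTTTCC (NF-kB type), in that order.
Il6 promoter: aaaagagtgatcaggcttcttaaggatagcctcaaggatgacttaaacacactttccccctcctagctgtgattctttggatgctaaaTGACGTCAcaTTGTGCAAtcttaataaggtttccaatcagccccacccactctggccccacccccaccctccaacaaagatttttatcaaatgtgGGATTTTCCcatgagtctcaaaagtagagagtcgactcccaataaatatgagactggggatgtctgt
The 3 matches begin at -162, -152 and -67 from the start and do not overlap. Over both strands of all 33469 RefSeq windows of this length, 1.587% held the first motif, 9.217% the second and 5.187% the third. None of the other 4 members held any of these 3 motifs in its window, and none of the 5 held TTCNNNGAA, a Stat type motif found in 7.667% of windows. The start used for Socs3 lies 1207 bases inside the outer end of the gene, so its window is not the stretch before the gene. A match is a description of letters and not a measured site.

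Il1a encodes interleukin-1 alpha, which is active as its precursor and is released from injured cells. Its 3 probe sets agreed that mechanical 100% lungs had the highest level. D00403_g_at read 2412.0 and 2044.3 in mechanical 100%, 1066.6 and 945.3 in mechanical 21%, 1374.6 and 1459.0 in spontaneous 100%, and 1133.4 and 1050.5 in spontaneous 21% lungs. Both mechanical 100% samples lay above all the others, and the mechanical 21% and spontaneous 21% samples overlapped. D00403_at read 2175.2 and 1918.0 in mechanical 100%, 1139.7 and 849.5 in mechanical 21%, 1385.5 and 1299.8 in spontaneous 100%, and 825.0 and 1005.5 in spontaneous 21% lungs. The dimmer E05489cds_s_at read 360.2 and 287.5 in mechanical 100%, 141.3 and 140.1 in mechanical 21%, 170.0 and 145.4 in spontaneous 100%, and 190.8 and 165.4 in spontaneous 21% lungs. On each of them the lowest mechanical 100% sample exceeded the highest sample of any other group.

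Il1a was higher with 100% oxygen in ventilated lungs on all 3 probe sets. Mechanical 100% exceeded mechanical 21% by 1.11 ± 0.14 on the log2 scale for D00403_g_at (2.16-fold, adjusted p = 0.0011), 1.02 ± 0.17 for D00403_at (adjusted p = 0.0039) and 1.00 ± 0.22 for E05489cds_s_at (adjusted p = 0.011). In spontaneously breathing lungs the same change in oxygen gave 0.36 ± 0.14, 0.54 ± 0.17 and -0.14 ± 0.22, none of them called (adjusted p = 0.10, 0.069 and 0.71). At 100% oxygen Il1a was higher in mechanical than in spontaneous lungs by 0.63 ± 0.14, 0.59 ± 0.17 and 0.88 ± 0.22 in the same order (adjusted p = 0.014, 0.039 and 0.025). At 21% oxygen it gave -0.12 ± 0.14, 0.11 ± 0.17 and -0.27 ± 0.22 (adjusted p = 0.61, 0.72 and 0.46). The interaction was 0.75 ± 0.19 for D00403_g_at (adjusted p = 0.023) and 1.14 ± 0.32 for E05489cds_s_at (adjusted p = 0.031), and for D00403_at it was 0.48 ± 0.25 and missed the threshold (adjusted p = 0.18). Against spontaneous 21%, mechanical 100% was higher by 1.00 ± 0.14 for D00403_g_at (adjusted p = 0.0036) and 1.13 ± 0.17 for D00403_at (adjusted p = 0.0048).

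The difference between mechanical and spontaneous 100% was the least secure of these. It lost its call on all 3 probe sets under cyclic loess (adjusted p = 0.054 to 0.13), within the arrays without the lot line (0.12 to 0.14), without sample a of mechanical 100% (0.087 to 0.17) and without sample a or b of spontaneous 100% (0.054 to 0.18). That of D00403_at was also lost without sample b of mechanical 100% (0.070). The D00403_g_at interaction was lost without sample a of spontaneous 21%, a of mechanical 100%, a or b of spontaneous 100% or b of mechanical 21% (adjusted p = 0.056 to 0.078). The E05489cds_s_at interaction was lost without a or b of spontaneous 21%, a of mechanical 100%, b of spontaneous 100%, or a or b of mechanical 21% (0.053 to 0.086). Both interactions were also lost under quantile normalization (0.063 and 0.053), under cyclic loess (0.073 and 0.066) and with the lot line as a term (0.60 and 0.52). The call of E05489cds_s_at between mechanical 100% and 21% was lost without sample a of mechanical 100% (adjusted p = 0.058) and without sample a or b of mechanical 21% (0.052 and 0.059). Il1a was lowest in mechanical 21% on 2 of its probe sets, in the group whose summed T lymphocyte and fat markers were high, and the part of those in the result was not tested.

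The RefSeq start used for the Il1a window lies 219 bases inside the outer end of the gene, so its sequence is described only. The 250 bases before that start held TATAAA at -32 to -27, a motif in 12.93% of windows, and TGANTCA, the AP-1 type, at -12 to -6, a motif in 6.34% of windows.

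Il1b encodes interleukin-1 beta, which is made as an inactive precursor and cut by caspase-1. All 3 probe sets were lowest in spontaneous 21% lungs. E01884cds_s_at read 3413.5 and 2974.3 in mechanical 100%, 1820.2 and 1777.7 in mechanical 21%, and 2743.9 and 2756.3 in spontaneous 100% lungs, against 1093.3 and 1192.7 in spontaneous 21% lungs. On this probe set the 4 groups did not overlap, in the order mechanical 100%, spontaneous 100%, mechanical 21% and spontaneous 21%. M98820_at read 2664.3 and 2689.8 in mechanical 100%, 3318.0 and 2473.9 in mechanical 21%, and 2394.9 and 3413.2 in spontaneous 100% lungs, against 1581.3 and 1794.3 in spontaneous 21% lungs. M98820_g_at read 2016.0 and 2403.8 in mechanical 100%, 2476.6 and 2024.6 in mechanical 21%, and 2162.5 and 2487.9 in spontaneous 100% lungs, against 1323.5 and 1482.1 in spontaneous 21% lungs. On both M98820 probe sets the first 3 groups overlapped and spontaneous 21% lay below them all. The share of all probe sets on which groups of 2 samples lie apart in these ways was not counted.

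At 21% oxygen Il1b was higher in mechanical than in spontaneous lungs by 0.64 ± 0.12 on E01884cds_s_at (1.56-fold, adjusted p = 0.013), 0.75 ± 0.20 on M98820_at (adjusted p = 0.040) and 0.66 ± 0.15 on M98820_g_at (adjusted p = 0.027). In spontaneously breathing lungs it was higher at 100% than at 21% oxygen by 1.24 ± 0.12 (2.36-fold, adjusted p = 0.00071), 0.75 ± 0.20 (adjusted p = 0.036) and 0.71 ± 0.15 (adjusted p = 0.020) on the same probe sets. For oxygen in ventilated lungs the probe sets disagreed. Mechanical 100% exceeded mechanical 21% by 0.81 ± 0.12 on E01884cds_s_at (1.75-fold, adjusted p = 0.0023), whereas the M98820 probe sets gave -0.10 ± 0.20 and -0.02 ± 0.15 (adjusted p = 0.73 and 0.92). Mechanical over spontaneous 100% gave 0.21 ± 0.12, -0.09 ± 0.20 and -0.07 ± 0.15, none called (adjusted p = 0.24, 0.76 and 0.76). The interaction was -0.43 ± 0.17, -0.85 ± 0.28 and -0.74 ± 0.22 and was called on M98820_g_at alone (adjusted p = 0.094, 0.055 and 0.039). Mechanical 100% exceeded spontaneous 21% by 1.45 ± 0.12 on E01884cds_s_at (2.72-fold, adjusted p = 0.00035) and by 0.64 ± 0.15 on M98820_g_at (adjusted p = 0.029), while on M98820_at the difference of 0.66 ± 0.20 was not called (adjusted p = 0.062).

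The E01884cds_s_at calls for mechanical 100% over mechanical 21%, spontaneous 100% over 21% and mechanical 100% over spontaneous 21% held in every alternative run. Its call for ventilation at 21% oxygen was lost without sample a or sample b of mechanical 21% (adjusted p = 0.067 both times). The calls of M98820_at for ventilation at 21% oxygen and for oxygen in spontaneous breathing were lost without sample a of spontaneous 21% (adjusted p = 0.14 both times), without sample b of it (0.085 and 0.070), and without either sample of mechanical 100% (0.055 to 0.058). They were also lost without sample a (0.20) or b (0.057) of mechanical 21% in the first case and sample b of spontaneous 100% (0.17) in the second. Those of M98820_g_at were lost without sample a of spontaneous 21% (0.10 and 0.084), without a or b of mechanical 21% (0.14 and 0.055) in the first case and without a or b of spontaneous 100% (0.053 and 0.10) in the second. Without sample b of spontaneous 21% the first was lost as well (0.060). The M98820_g_at call for mechanical 100% over spontaneous 21% was lost without any 1 sample of these groups (0.053 to 0.12). Its interaction was lost without a or b of spontaneous 21%, a of mechanical 100%, a or b of spontaneous 100% or a of mechanical 21% (0.052 to 0.12), and with the lot line as a term (0.47). Both M98820 probe sets also lost their calls for ventilation at 21% oxygen and for oxygen in spontaneous breathing in 2 other settings. These were the lot line as a term (adjusted p = 0.20 to 0.27) and no filter (0.066 to 0.14). The macrophage markers on the array, 4 of 11 listed, summed to 7160 and 7415 in mechanical 100%, 10971 and 12379 in mechanical 21%, and 9093 and 10707 in spontaneous 100% lungs, against 16554 and 11811 in spontaneous 21% lungs, where Il1b and Il6 were lowest. None of the 4 was at or below 0 in both samples of a group. The neutrophil markers, 8 of 13 listed, summed to 15905 and 15811 in mechanical 100%, 23854 and 23638 in mechanical 21%, and 19868 and 21729 in spontaneous 100% lungs, against 20315 and 18651 in spontaneous 21% lungs, and none was at or below 0 in both samples of a group. Of 7 tested, 4 were higher in mechanical than in spontaneous 21% lungs, against 6.61% of all genes. In spontaneous 100% over spontaneous 21% lungs 1 was higher, the collagenase Mmp8, against 6.453% of all genes. Mmp8 read 1665.5 and 1395.3 in mechanical 100%, 1154.6 and 889.2 in mechanical 21%, and 1415.9 and 1205.1 in spontaneous 100% lungs, against 648.9 and 600.3 in spontaneous 21% lungs, low in the same group as Il1b. Mmp8 is named here with its values already known, and the brighter S100a8 and S100a9 were lowest in mechanical 100% lungs instead. S100a8 read 6398.9 and 6542.1 in mechanical 100%, against 7835.1 and 7890.2 in spontaneous 21% lungs. S100a9 read 6331.9 and 6530.5 in mechanical 100%, against 11018.7 and 9365.4 in spontaneous 21% lungs. RatNP-3b was also lowest in spontaneous 21% lungs (8.8 and 28.7). It read 1116.8 and 1297.1 in mechanical 21%, but 37.3 and 83.1 in spontaneous 100% lungs. Defa5, Cxcr2, Mmp9 and the untested Itgam overlapped between spontaneous 100% and 21% lungs. The part of macrophage and neutrophil markers in the Il1b result was not tested.

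The Il1b window is shown beside that of Il6 because the genes were low in the same group, while the motifs it holds differ. It covers the 250 bases before the RefSeq start, chr3:137036582-137036831 on the minus strand of GRCr8, with capitals for TATAAA.
Il1b promoter: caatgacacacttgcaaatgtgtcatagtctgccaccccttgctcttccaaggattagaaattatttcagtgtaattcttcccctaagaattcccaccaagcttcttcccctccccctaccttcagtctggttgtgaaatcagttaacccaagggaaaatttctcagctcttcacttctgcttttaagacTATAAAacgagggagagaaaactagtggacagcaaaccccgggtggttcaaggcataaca
TATAAA stands at -60 to -55 there. The NF-kB, C/EBP, cyclic AMP and AP-1 motifs had no match in these 250 bases, which says only that those letters are not in this window.

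Tnf encodes tumour necrosis factor, an early cytokine of the inflammatory response. Its only probe set, E02468cds_s_at, read -132.3 and -160.8 in mechanical 100%, -73.0 and -124.9 in mechanical 21%, -100.1 and -164.4 in spontaneous 100%, and -175.8 and -119.3 in spontaneous 21% lungs. All 9 arrays were at or below 0, so no level and no difference between groups can be stated for Tnf. Its window of 250 bases held TATAAA from -46 to -41.

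Socs3 encodes suppressor of cytokine signalling 3, which acts as the brake on the Il-6 signal. Its probe set AF075383_at read 816.0 and 430.3 in mechanical 100%, 19.2 and 171.4 in mechanical 21%, 509.4 and 320.6 in spontaneous 100%, and 276.4 and 126.5 in spontaneous 21% lungs. Both mechanical 100% samples lay above both mechanical 21% samples, and both spontaneous 100% samples lay above both spontaneous 21% samples. Mechanical 100% overlapped with spontaneous 100%, and mechanical 21% with spontaneous 21%. The 2 arrays of sample b of mechanical 100% read 393.9 and 466.7. In order of mean level mechanical 100% came first, then spontaneous 100%, spontaneous 21% and mechanical 21%. Mechanical 100% exceeded mechanical 21% by 2.50 ± 0.60 on the log2(intensity + 40) scale (95% interval 1.12 to 3.89, adjusted p = 0.014). Both mechanical 21% readings lay within the range of the controls without a target and one was below the 40 added, so the size depends on that offset: it was 3.10 with an offset of 1% of the trimmed mean and 2.10 with 10%. The other comparisons were not called. Mechanical over spontaneous 100% gave 0.51 ± 0.60 (adjusted p = 0.57), spontaneous 100% over 21% 0.96 ± 0.60 (adjusted p = 0.31) and mechanical over spontaneous 21% -1.04 ± 0.60 (adjusted p = 0.29).

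The Socs3 interaction was 1.55 ± 0.85 (95% interval -0.41 to 3.51, adjusted p = 0.21), so a difference in the effect of ventilation between oxygen levels was not shown. The single Socs3 call was lost without sample a of mechanical 21%, the lowest reading (1.58, adjusted p = 0.066), while without sample b of that group the difference was 3.42. It was also lost without sample a of mechanical 100% (2.07, adjusted p = 0.091), with no filter on low values (adjusted p = 0.092) and within the arrays without the lot line (1.96, adjusted p = 0.10). Socs3 was lowest in the mechanical 21% group, where the summed T lymphocyte and fat markers were high, and the part of that was not tested. Socs3 and Il6 were not ordered alike, since spontaneous 21% had the lowest Il6 and mechanical 21% the lowest Socs3.

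**Figure D2:**
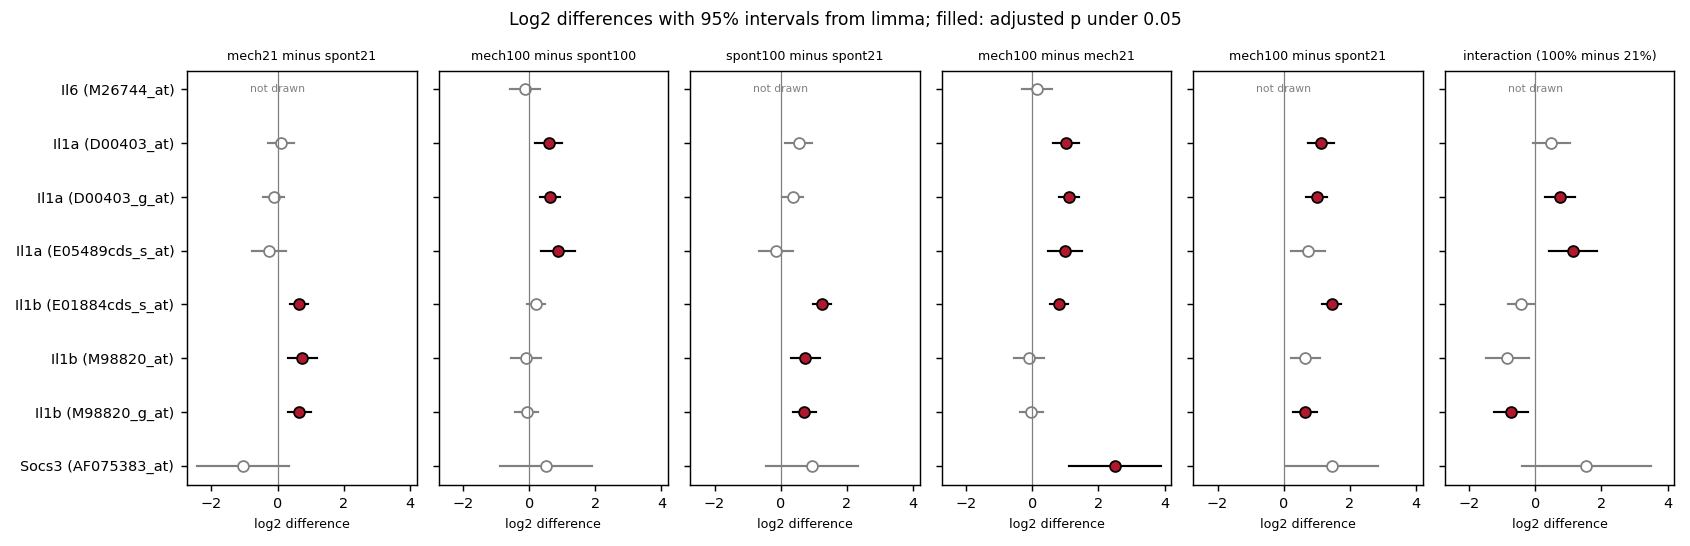
Log2 differences of the 8 tested probe sets (x axis, log2(intensity + 40) scale) in the 5 pairwise comparisons and the interaction, with 95% intervals from limma; filled points were called at adjusted p under 0.05. The Il6 differences against spontaneous 21% are not drawn because that group is at or below 0, and the 3 Il1a probe sets lie together near 1 for mechanical 100% over mechanical 21%.

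The receptor and kinases that carry the Il-6 signal were set beside the members. Of 24 listed genes of the Il-6 family, its receptors and the Jak-Stat route, 17 were on the array and 15 were tested. For mechanical 100% over mechanical 21%, 3 of 15 rose and 0 fell, with a median log2 difference of 0.27, against 19.86% of all 3177 tested genes higher, 13.69% lower and a median of 0.12. The 3 of 15 lies near the share of all genes and is no result about the list. Stat3, the main transcription factor of the route, read 869.0 and 631.7 in mechanical 100%, against 159.7 and 201.7 in mechanical 21% lungs (1.83 ± 0.21, adjusted p = 0.00077). Il6r, the receptor subunit that binds Il-6, read 2711.7 and 2417.1 in mechanical 100%, against 1131.0 and 966.3 in mechanical 21% lungs (1.26 ± 0.18, adjusted p = 0.0021). Jak1, a receptor-bound kinase, rose there by 1.21 ± 0.21 (adjusted p = 0.0044) and in mechanical over spontaneous 100% by 1.24 ± 0.21 (adjusted p = 0.0064). In the latter comparison it was 1 of 15 higher, against 16.27% of all genes.

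At 21% oxygen Stat3 and Il6r were lower in mechanical than in spontaneous 21% lungs (-0.93 ± 0.21, adjusted p = 0.024, and -0.68 ± 0.18, adjusted p = 0.043), and these were the 2 of 15 called there, against 6.988% of all genes lower. Both calls were lost without sample b of spontaneous 21% or either sample of mechanical 21%, Stat3 also without sample a of spontaneous 21%, and Il6r also without any 1 sample of the groups with 100% oxygen. With no filter and with the lot line as a term both calls were lost as well. The interaction was called for Stat3 (1.48 ± 0.29, adjusted p = 0.0082), Il6r (1.23 ± 0.26, adjusted p = 0.011) and Jak1 (1.73 ± 0.30, adjusted p = 0.0048), 3 of 15, against 16.43% of all genes. This too lies near the share of all genes and is no result about the list. All 3 interaction calls were lost with the lot line as a term, and that of Il6r also with no filter. Their adjusted p rose to at most 0.31, 0.37 and 0.21 in the same order over the alternatives. Ptpn6, a phosphatase that damps cytokine receptors, fell in spontaneous 100% over 21% (-0.79 ± 0.20, adjusted p = 0.033), a call lost without any 1 of the 4 samples compared. It was 1 of 15 lower there, against 9.915% of all genes. Of the other Socs family 3 of 7 were on the array and 2 were tested, Socs2 and Socs7, with no call. Socs2 read 316.0 and 362.2 in mechanical 100%, against 84.6 and 214.9 in mechanical 21% lungs (1.09 ± 0.53, adjusted p = 0.15).

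Genes that Stat3 and the acute-phase response switch on were split. Of 23 listed 21 were on the array and 19 were tested. For mechanical 100% over mechanical 21% 8 rose and 2 fell, with a median of 0.48. Of all genes 19.86% were higher and 13.69% lower there, with a median of 0.12. Pim3, a survival kinase, read 2006.0 and 2243.3 in mechanical 100%, against 801.8 and 720.1 in mechanical 21% lungs (1.43 ± 0.16, adjusted p = 0.00081). Cebpb, a transcription factor of the acute phase, rose by 0.96 ± 0.12 (adjusted p = 0.0013) and Cp, the copper carrier ceruloplasmin, by 0.98 ± 0.15 (adjusted p = 0.0023). Lcn2, an iron-scavenging protein of neutrophils and epithelium, rose by 0.51 ± 0.12 (adjusted p = 0.014), a call lost without sample b of mechanical 100% (adjusted p up to 0.092 over the alternatives) and without sample a of mechanical 21%. The 2 that fell were secreted lectins of the Reg3 family. Reg3a read 52.3 and 19.3 in mechanical 100%, against 254.1 and 393.3 in mechanical 21% lungs (adjusted p = 0.0021), and no size is given since the mechanical 100% readings are near or below the 40 added. Reg3b read 324.1 and 305.2 in mechanical 100%, against 838.7 and 813.8 in mechanical 21% lungs (-1.29 ± 0.16, adjusted p = 0.0011).

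In mechanical over spontaneous 100% 5 of the 19 targets rose and 1 fell, against 16.27% of all genes higher and 9.317% lower, and the 5 included Lcn2 (0.89 ± 0.12, adjusted p = 0.0029), Pim3 (0.95 ± 0.16, adjusted p = 0.0065), Cebpb (0.75 ± 0.12, adjusted p = 0.0056) and Cp (0.63 ± 0.15, adjusted p = 0.018). The Cp call was lost without any 1 of the 4 samples compared. In mechanical over spontaneous 21% 1 of 19 rose and 4 fell, against 6.61% of all genes higher and 6.988% lower. Reg3b was the 1 that rose (0.94 ± 0.16, adjusted p = 0.0083), a call lost without either mechanical 21% sample, and Cp (-0.63 ± 0.15, adjusted p = 0.027), Pim3 (-0.69 ± 0.16, adjusted p = 0.030) and Lcn2 (-0.46 ± 0.12, adjusted p = 0.043) were among those that fell, each lost without 1 or another of at least 3 samples. Oxygen in spontaneous breathing gave 2 of 19 higher and 1 lower, against 6.453% of all genes higher and 9.915% lower, and Lcn2 was the lower one (-0.85 ± 0.12, adjusted p = 0.0044). The higher ones were Junb (0.88 ± 0.17, adjusted p = 0.015) and Hp (0.63 ± 0.15, adjusted p = 0.026). Hp was also the 1 that fell in mechanical over spontaneous 100% (-0.48 ± 0.15, adjusted p = 0.045). Both are named here outside the smallest p of the list.

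**Figure D3:**
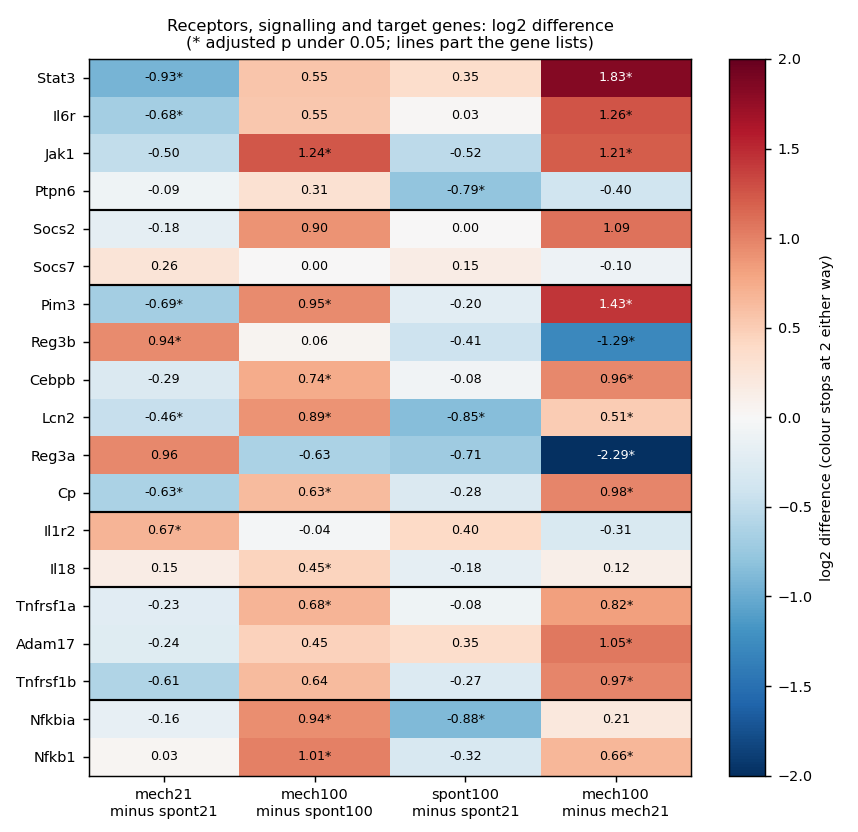
Log2 difference (colour and number, log2(intensity + 40) scale) of the 19 named receptor, signalling and target genes in 4 comparisons, with mech for mechanical and spont for spontaneous; stars mark calls at adjusted p under 0.05 and black lines part the gene lists. Most stars in the last column are on genes higher in mechanical 100% than in mechanical 21% lungs, Reg3a and Reg3b being lower.

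For interleukin-1 only 9 of 22 listed receptors, inhibitors and processing genes were on the array, and 6 were tested. The decoy receptor Il1r2, which binds Il-1 without signalling, read 1791.4 and 1632.1 in mechanical 21%, against 997.8 and 1118.1 in spontaneous 21% lungs (0.67 ± 0.13, adjusted p = 0.013), 1 of 6, against 6.61% of all genes higher. The call was lost without sample a of spontaneous 21% or either sample of mechanical 21% (adjusted p up to 0.16 over the alternatives). Il18, a cytokine of the Il-1 family, rose in mechanical over spontaneous 100% (0.45 ± 0.13, adjusted p = 0.034), and that call was lost in 15 of 21 alternatives. It was also 1 of 6, near the 16.27% of all genes higher there, so it is no result about the list. Il1r1, the signalling receptor, and Il1rn, the receptor antagonist, were too dim to be tested.

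Of 19 listed genes of Tnf receptors and signalling 6 were on the array and 5 were tested. For mechanical 100% over mechanical 21% 3 of 5 rose, against 19.86% of all genes higher. Tnfrsf1a, the widely expressed Tnf receptor, read 2050.0 and 2424.4, against 1240.7 and 1243.3 (0.82 ± 0.16, adjusted p = 0.0067), Tnfrsf1b, the second receptor, rose by 0.97 ± 0.24 (adjusted p = 0.015), and Adam17, the protease that sheds Tnf and its receptors, rose by 1.05 ± 0.21 (adjusted p = 0.0075). The Tnfrsf1b call was lost without sample a of mechanical 100% or either sample of mechanical 21% (adjusted p up to 0.077). Only 2 of 11 NF-kB subunits and inhibitors were on the array, and both rose in mechanical over spontaneous 100%, against 16.27% of all genes. Nfkbia, the inhibitor that NF-kB itself induces, read 3655.1 and 3646.9 in mechanical 100%, against 1980.5 and 1798.5 in spontaneous 100% lungs (0.94 ± 0.12, adjusted p = 0.0024), and Nfkb1, a subunit, 2213.7 and 2084.0, against 1183.4 and 923.8 (1.01 ± 0.15, adjusted p = 0.0039). Nfkbia fell in spontaneous 100% over 21% (-0.88 ± 0.12, adjusted p = 0.0036), in the comparison in which Il1b was higher.

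The genes whose log2 values ran most like those of a member were found by Pearson correlation over the 8 samples among 3177 genes. The 8 points are 4 groups of 2 on shared arrays, so r mostly restates the group means and carries no test. For Il6 the nearest was Ccl2 (r = 0.989), which encodes a monocyte attractant and read 1512.5 and 1275.2 in mechanical 100%, 1448.8 and 1401.3 in mechanical 21%, and 1513.6 and 1809.7 in spontaneous 100% lungs, against 333.6 and 395.6 in spontaneous 21% lungs. Nme2 (0.978), Ttr (0.965), St8sia1 (0.955) and Rup2 (0.946) followed, and 16 genes exceeded 0.9. For Il1a by D00403_g_at the nearest were Fos (0.975), Hpcal4 (0.975), Cast (0.967), Ghr (0.967) and Jun (0.963), and 65 genes exceeded 0.9. Fos, an immediate early transcription factor, read 3479.3 and 3334.2 in mechanical 100%, 1063.9 and 1189.4 in mechanical 21%, 1584.5 and 1753.4 in spontaneous 100%, and 1154.5 and 1064.7 in spontaneous 21% lungs. For Il1b by M98820_at they were Psma4 (0.941), Sag (0.917), Ccl2 (0.906), Nme2 (0.898) and Cd52 (0.873), so Ccl2 and Nme2 stood among the 5 nearest of both Il6 and Il1b. For Socs3 they were Smg6 (0.969), Slc4a7 (0.967), Myh7 (0.965), Tnxa-ps1 (0.956) and Pip4p1 (0.949).

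**Figure D4:**
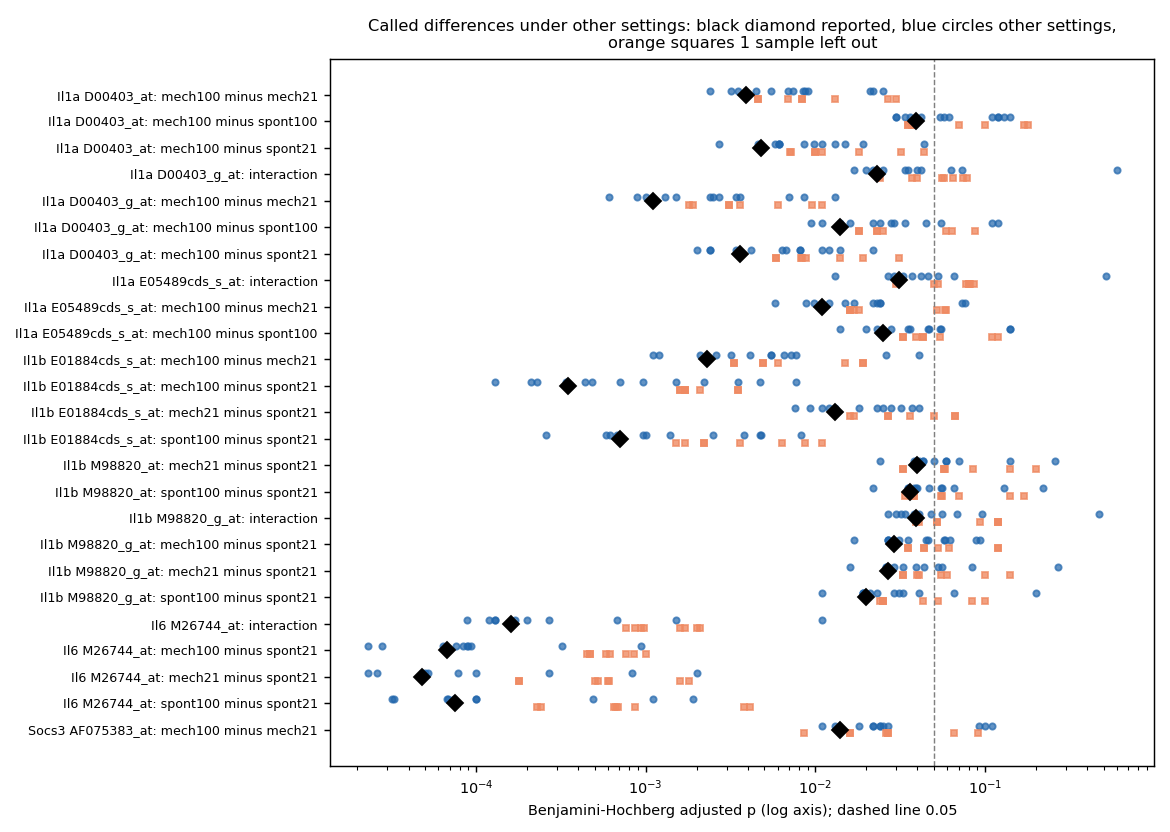
Benjamini-Hochberg adjusted p (log axis) of the 25 called differences of the members; black diamonds are the values reported, blue circles the other settings and orange squares the fits with 1 sample left out, with the dashed line at 0.05. The Il6 readings of spontaneous 21% were set to 0 before the fits, so they added no spread. Leaving out either of these samples therefore did not change the Il6 differences. Il6 has no point for the filter of 60%, the fits of spontaneous 21% with 1 other group alone and the arrays with the lot line, where it was too low to be tested. The Il6 points that are drawn lie left of the line, which is thus no measure of stability. Those of Il1b E01884cds_s_at do so except for ventilation at 21% oxygen, and the M98820 points cross it.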

How the data were processed

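Rat lung RNA was measured on 9 arrays from 8 samples. The deposited table holds intensities on a linear scale, as its values show (trimmed means near 801 and values below 0). The authors' software, background correction and scaling are not given in the sources used here. Probe sets were named from GEO's platform annotation: 7006 of 8740 had 1 gene symbol, 308 several and 1426 none, and 6985 matched the current gene table. Values below 0 were set to 0, 40 was added (5% of the mean 2% trimmed mean) and log2 taken. The lowest 40% of probe sets by mean level were not tested. The 2 arrays of mechanical 100% sample b were averaged. limma 3.58.1 in R 4.3.3 fitted 4 group means (4 residual degrees of freedom, variance trend), with Benjamini-Hochberg adjustment over 5244 probe sets, and was tested on simulated data. The number of arrays limits the precision. No label says that letters a and b pair samples across groups, so none was fitted in the main model. Their deviations correlated at -0.128 to 0.0657, which cannot exclude a weak pairing. Pathway genes are those of fixed lists, by their brightest probe set, and those named were chosen by the smallest p in each list. The members and lists were chosen with earlier results of these data known. Promoter windows come from RefSeq on GRCr8. Other scalings, offsets and filters, the lot line, a replicate block, single groups and left-out samples were tried as alternatives, and the 2 fits within arrays with or without the lot line were added after seeing the data. The fit with the lot line as a term used 9 arrays and counted the 2 arrays of mechanical 100% sample b apart. The line varies within mechanical 100% alone, so that term rests on the arrays of this group.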

Additional observations from a re-analysis of the deposited data

Results flagged for a closer look

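The effect of mechanical over spontaneous ventilation was called different between 100% and 21% oxygen, by the interaction term of the limma fit, on 4 probe sets. For Il6 M26744_at the adjusted p was 0.00016, with means of 428.1 ± 4.87 in mechanical 100% against 473.2 ± 16.7 in spontaneous 100% lungs, and 380.8 ± 5.10 in mechanical 21% against -36.1 ± 25.9 in spontaneous 21% lungs (SD, n = 2 each). The fit set both Il6 readings of spontaneous 21% to 0, so their SD did not enter that p-value. Il6 was bright enough to be tested only through the other 3 groups. For Il1a D00403_g_at the adjusted p was 0.023 and for Il1a E05489cds_s_at 0.031, ventilation going with a higher level at 100% oxygen. All E05489cds_s_at readings lay under the highest opposite-strand control. Neither Il1a interaction was called with quantile normalization (adjusted p = 0.063 and 0.053), with cyclic loess (0.073 and 0.066) or with the lot line as a term (0.60 and 0.52). For Il1b M98820_g_at it was 0.039, ventilation going with a higher level at 21% oxygen. The interaction was called for 27.4% of all tested probe sets.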

How the results depend on the processing

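Of 25 called differences of the members 11 were called in every alternative run that could test them, and no called difference changed its sign. The Il6 calls among the 11 rest on spontaneous 21% readings set to 0, and some runs could not test Il6. With limma, 4, 3, 4, 5 and 4 members were called for mechanical over spontaneous 21%, mechanical over spontaneous 100%, spontaneous 100% over 21%, mechanical 100% over 21% and the interaction. With the lot line as a term these were 2, 0, 2, 3 and 1. For mechanical over spontaneous 21% and spontaneous 100% over 21% no filter gave 2 and 2 and only the 2 groups compared gave 1 and 2, and for mechanical over spontaneous 21% no variance trend gave 2. Cyclic loess gave 0 for mechanical over spontaneous 100% and 2 for the interaction. For mechanical 100% over 21% a filter of 60% gave 3. Arrays without the lot line gave 0 for mechanical over spontaneous 100% and 3 for mechanical 100% over 21%. Leaving out 1 sample gave 1 to 4, 0 to 3, 2 to 4, 3 to 5 and 1 to 4, and 4 to 6 for mechanical 100% over spontaneous 21% (5 as reported). The letter as a replicate block gave 3, 2, 3, 5 and 3, and 5 for that last comparison. No label says that the letters pair samples, so this block may not be a pairing. Uncalled differences changed sign as follows. Il6 for mechanical 100% over 21% was -0.065 under quantile normalization and -0.092 under cyclic loess. With the lot line as a term Il1a D00403_g_at was 0.091 for mechanical over spontaneous 21% and E05489cds_s_at 0.073 for spontaneous 100% over 21%. There and within arrays without the line, mechanical over spontaneous 100% gave -0.036 for Il1b E01884cds_s_at, 0.0043 for M98820_g_at and -0.037 for Socs3, and mechanical 100% over 21% gave 0.054 for M98820_g_at. With 1 sample left out, Il1a D00403_at gave -0.096 to 0.31 for mechanical over spontaneous 21%. M98820_at gave -0.35 to 0.16 for mechanical over spontaneous 100% and -0.31 to 0.11 for mechanical 100% over 21%, and M98820_g_at -0.20 to 0.050 and -0.17 to 0.12. Over all probe sets, 760, 1413, 879, 1841, 1439 and 761 were called for these 5 and mechanical 100% over spontaneous 21%. The lot line as a term gave 106, 477, 128, 898, 159 and 840. No filter gave 490, 796, 540, 1446, 1105 and 397. Arrays without the line gave 474 for mechanical over spontaneous 100% and 930 for mechanical 100% over 21%. Leaving out 1 sample gave 228 to 709, 474 to 1423, 370 to 796, 956 to 1904, 980 to 1328 and 312 to 683. The cause was not tested.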
